A study of Mus musculus with 11 samples.

Results

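The promoters of 10 mouse genes for cytosolic Hsp70, Hsp110 and Hsp90 chaperones were examined for ST18 chromatin immunoprecipitation (ChIP) reads, among 21881 promoter windows. The genes were selected by family name from measured values already in view: Hsph1 and Hspa8 had stood among the highest windows for ST18 over input. The members' counts are therefore given as a description. The intervals printed with them show counting error and take no account of that choice. All 10 symbols were found in the table, and each had reads in both columns.

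The series holds 11 samples. The groups used here are 2 ChIP samples of HA-tagged ST18 and 1 input sample of genomic DNA. All 3 are in vitro samples of cells labelled TN, of the type brain cell. The sources used here name neither a genotype, nor the construct that carries the tag, nor the strain or age of the cells. One ST18 column and 1 input column stood for these samples, and the ST18 column may hold either of the 2 ChIP samples or both. No value below has a replicate. Another 4 RNA samples with ST18 knockdown and 4 control RNA samples, collected at E16.5 (an embryonic day) after electroporation at E12.5, were not analysed here, so the labelled cell type was not checked against its markers.

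ST18 belongs to the MYT1 family of DNA-binding zinc finger proteins. Hsp70 and Hsp90 proteins bind unfolded or partly folded proteins and use ATP to help them fold, and Hsp110 proteins are relatives of Hsp70 that exchange its nucleotide. Some of these genes are kept on in most cells, while others are switched on by heat shock factor 1, which binds heat shock elements, short inverted GAA units, upstream of its targets. Here Hspa1a, Hspa1b, Hsph1 and Hsp90aa1 were classed as stress-inducible, and Hspa8, Hspa4, Hspa4l, Hspa1l, Hspa2 and Hsp90ab1 as constitutive, a class that includes 3 genes enriched in testis (Hspa1l, Hspa2 and Hspa4l).

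RefSeq promoter sequences (build GRCm38.p6) matched 7 of the 10 members and 14683 of the 21881 windows by symbol. Hspa8, Hsp90aa1 and Hsp90ab1 were not matched. The 250 bases upstream of the start are shown for 5 members. Hsph1 is the highest and Hspa4 the lowest member, and both belong to the Hsp110 family. Hspa1a and Hspa1b are near-identical copies, and Hspa1l is the neighbour of Hspa1a. Capitals mark a heat shock element of 2 units, GAANNTTC or TTCNNGAA.
Hsph1 (chr5:149636337-149636586, minus strand): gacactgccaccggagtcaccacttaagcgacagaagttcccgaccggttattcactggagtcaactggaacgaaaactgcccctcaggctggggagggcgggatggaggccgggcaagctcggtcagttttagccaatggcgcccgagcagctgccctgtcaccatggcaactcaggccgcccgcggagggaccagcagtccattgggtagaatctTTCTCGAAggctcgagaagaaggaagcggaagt
Hspa4 (chr11:53300480-53300729, minus strand): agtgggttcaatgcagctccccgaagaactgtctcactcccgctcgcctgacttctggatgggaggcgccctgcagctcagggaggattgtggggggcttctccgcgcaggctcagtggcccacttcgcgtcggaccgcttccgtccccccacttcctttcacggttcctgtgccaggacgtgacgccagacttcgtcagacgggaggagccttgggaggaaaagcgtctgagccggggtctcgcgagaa
Hspa1a (chr17:34972157-34972406, minus strand): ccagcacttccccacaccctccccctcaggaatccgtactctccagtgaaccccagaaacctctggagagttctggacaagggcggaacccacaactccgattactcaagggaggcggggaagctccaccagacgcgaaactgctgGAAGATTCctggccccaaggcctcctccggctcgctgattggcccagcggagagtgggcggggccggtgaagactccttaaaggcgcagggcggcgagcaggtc
Hspa1b (chr17:34959239-34959488, minus strand): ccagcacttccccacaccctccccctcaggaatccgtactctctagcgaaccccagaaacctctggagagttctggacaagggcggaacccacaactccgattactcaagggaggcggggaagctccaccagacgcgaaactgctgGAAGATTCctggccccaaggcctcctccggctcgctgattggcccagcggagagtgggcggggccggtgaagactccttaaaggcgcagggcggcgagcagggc
Hspa1l (chr17:34972453-34972702, plus strand): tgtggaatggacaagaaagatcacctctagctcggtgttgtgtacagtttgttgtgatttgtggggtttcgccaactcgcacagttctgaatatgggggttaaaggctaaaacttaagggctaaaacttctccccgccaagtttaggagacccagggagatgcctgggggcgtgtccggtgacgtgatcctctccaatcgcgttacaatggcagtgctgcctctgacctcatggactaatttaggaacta

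Hsph1 held 1 such element, beginning at position −33 from the start, and Hspa1a and Hspa1b held 1 each at position −104. No element of this form was found in the 250 bases of Hspa4, Hspa4l, Hspa1l or Hspa2. Thus all 3 stress-inducible members with a sequence held the element and none of the 4 constitutive ones did, although Hspa1a and Hspa1b share nearly all of their sequence. Over all matched promoters the share with it was 11.6%, and Hsp90aa1, Hspa8 and Hsp90ab1 had no sequence to read. Hspa1a and Hspa1b differed at 3 of 250 bases (98.8% identity), so reads of one may have been placed at the other. The starts of Hspa1a and Hspa1l lie 547 bp apart on opposite strands, so their 1000 bp windows may share reads.

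The 2 columns held 438960 ST18 reads and 160443 input reads, a ratio of 2.74 over all promoters. A median window held 20 ST18 reads (interquartile range 14 to 26) and 7 input reads (5 to 10), and 523 windows held no reads. Each fold below is the window's ST18 to input ratio divided by that of all promoters. Its 95% interval is exact (Clopper-Pearson) and covers counting error only, since reads carry no molecular identifiers and need not be separate molecules. The authors' log2 enrichment is given beside it. It adds a pseudocount of 16 to both columns, so at the median input count a log2 value of 1 stands for a 3.86-fold ratio over all promoters.

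Among the Hsp70 genes, Hspa8 had by far the most ST18 reads. Hspa8, the constitutive Hsc70 that also uncoats clathrin vesicles, held 104 ST18 reads and 12 input reads (log2 1.05, fold 3.17, interval 1.74 to 6.33). Its ST18 count was above that of 99.95% of windows and its input count above that of 88.0%. The other Hsp70 promoters held 15 to 25 ST18 reads and 5 or 6 input reads, near the level of a median window.

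Hspa1a, a heat-induced Hsp70, held 25 ST18 and 6 input reads (log2 0.25, fold 1.52, interval 0.610 to 4.54). Hspa1b, its copy, held 15 and 5 reads (log2 0.07, fold 1.10, interval 0.379 to 3.86). The ratio of Hspa1a was 1.39 times that of Hspa1b (interval 0.281 to 6.54). Reads of one may have been placed at the other, so this ratio cannot compare these near-identical promoters.

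Hspa1l, a Hsp70 of the male germ line, held 24 and 6 reads (log2 0.23, fold 1.46, interval 0.582 to 4.37), within 1 ST18 read of its neighbour Hspa1a. Hspa2, needed for meiosis in spermatocytes, held 22 and 5 reads (log2 0.25, fold 1.61, interval 0.594 to 5.44). All 4 of these intervals included 1. With input counts of 5 or 6, their upper bounds lay at 3.86 to 5.44, so a fold as high as that of Hspa8 lay within each of them. The ratio of Hspa8 was 2.08 times that of Hspa1a (interval 0.579 to 6.69) and 2.89 times that of Hspa1b (0.691 to 10.4), and neither interval left out 1.

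The Hsp110 genes spanned the whole range of the members. Hsph1, the heat-inducible Hsp105, held 86 ST18 reads and 6 input reads and had the highest log2 value of all windows (1.21, fold 5.24, interval 2.31 to 14.7). Its input count was ordinary, above that of 31.3% of windows, while its ST18 count was above that of 99.94%. Hspa4 (Apg-2), a constitutive Hsp110, held 15 ST18 reads and 13 input reads (log2 −0.39, fold 0.422, interval 0.187 to 0.963). Its ST18 count was above that of 27.1% of windows and its input count above that of 92.4%.

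Hspa4l (Apg-1) lay between them, with 21 and 5 reads (log2 0.22, fold 1.54, interval 0.563 to 5.21). The Hsph1 ratio was 12.4 times the Hspa4 ratio (interval 3.62 to 45.2) and 3.41 times the Hspa4l ratio (0.738 to 14.7). Only the first of these intervals left out 1, and the pair is the highest and the lowest member, chosen from the same counts.

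Both Hsp90 promoters held many ST18 reads. Hsp90ab1, the constitutive Hsp90 beta, held 61 ST18 and 7 input reads (log2 0.82, fold 3.19, interval 1.46 to 8.25), with an input count at the median of all windows. Hsp90aa1, the inducible Hsp90 alpha, held the most ST18 reads of the members, 117, but also 23 input reads, an input count above that of 99.93% of windows (log2 0.70, fold 1.86, interval 1.18 to 3.05).

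The ratio of Hsp90ab1 was 1.71 times that of Hsp90aa1 (interval 0.662 to 4.99), which includes 1. In the table, 15 windows held at least as many input reads as Hsp90aa1, with a median log2 enrichment of −0.10, and 1 of them, Hsp90aa1 itself, reached 0.58. Slc35b2, a gene beside Hsp90ab1 in RefSeq, held 22 and 7 reads (log2 0.12, fold 1.15, interval 0.474 to 3.18). Its input count was that of Hsp90ab1, with far fewer ST18 reads. It was found as a neighbour by the extent of the genes. The distance between their starts was not computed, so their promoters need not be adjacent.

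**Figure D1:**
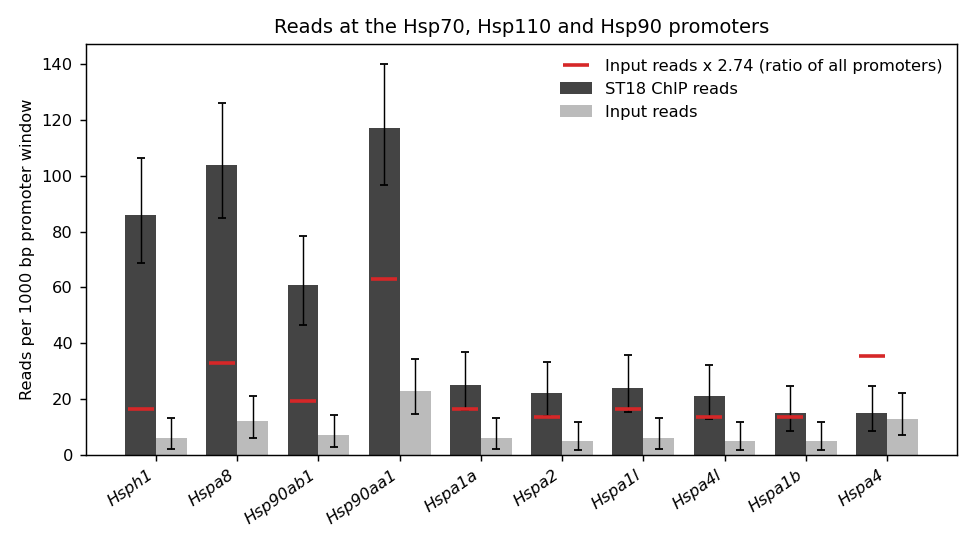
ST18 ChIP reads (dark bars) and input reads (light bars) per 1000 bp window for the 10 members, ordered by log2 enrichment, with exact 95% Poisson intervals, and red marks at the input reads times the ratio of all promoters, 2.74. Hsph1, Hspa8, Hsp90ab1 and Hsp90aa1 hold 61 to 117 ST18 reads and lie above their marks, while Hspa4, with 15, lies below its mark.

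In order of log2 enrichment the members were Hsph1, Hspa8, Hsp90ab1, Hsp90aa1, Hspa1a, Hspa2, Hspa1l, Hspa4l, Hspa1b and Hspa4, at ranks from 1 to 21335 of the 21881 windows. In log2 enrichment a gap separated the fourth from the next, Hsp90aa1 at 0.70 and Hspa1a at 0.25. By fold, without the pseudocount, they lay closer, at 1.86 and 1.52. The ratio of Hsp90aa1 to Hspa1a was 1.22 (interval 0.368 to 3.52). The 4 highest held 61 to 117 ST18 reads and the other 6 held 15 to 25. The log2 value is computed from the ST18 count, so this separation is partly built in. A count of 61 lay above that of 99.84% of windows, and a count of 25 above that of 69.7%. The input counts of the 4 highest and the other 6, 6 to 23 and 5 to 13, overlapped. In 9 of 9 pairs of neighbours in this order the interval of the ratio included 1, as for Hsph1 over Hspa8 (1.65, interval 0.546 to 5.59).

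A log2 enrichment of at least 1 was held by 2 of 10 members, Hsph1 and Hspa8, against 0.0548% of all windows. The windows just inside that threshold were Uspl1 and 1700021C14Rik, both at 1.03, and those just outside were Zfp467 and Hspd1, both at 0.96. At a threshold of 0.58, 4 of 10 members were past it, against 1.15% of all windows. The exact interval of the same 4 lay above 1, against 2.43% of the 21358 windows with reads, and that of Hspa4 lay below 1, against 3.32%. With the authors' scaling factor in place of the ratio of all promoters, the interval of Hspa4 included 1, and 0 members lay below it. These counts carry no weight as evidence, because the members were chosen with the same counts in view.

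Reads per window moved with these results. Over all windows the Spearman correlation of total reads with log2 enrichment was 0.26 (n = 21881), where the points share both libraries and the ST18 count enters both measures. At least as many reads as Hsp90ab1, 68 in both columns together, were held by 44 windows, 4 of them members. Their median log2 enrichment was 0.56, and 21 (47.7%) reached 0.58. At least as many as Hspa8, 116 reads, were held by 11 windows, 2 of them members, with a median of 0.29, and 5 of the 11 reached 0.58. At least as many as Hsp90aa1, 140 reads, were held by 6 windows with a median of 0.10, of which Hsp90aa1 alone reached 0.58. These groups are set by a total that includes the ST18 count. The part that depth has in the members' values was not tested.

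**Figure D2:**
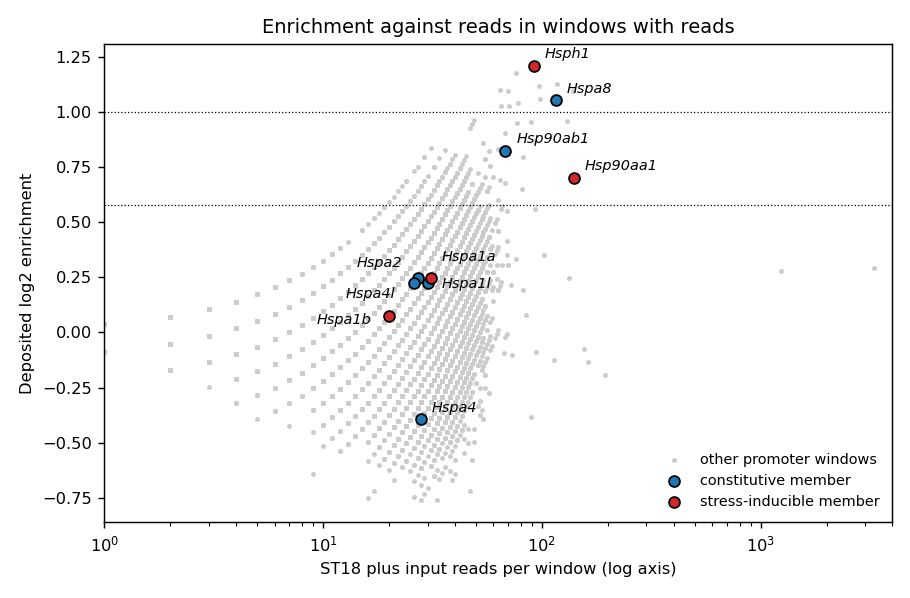
Deposited log2 enrichment (vertical axis) against ST18 plus input reads (horizontal log axis) for each window with reads (grey), with constitutive members in blue, stress-inducible members in red and dotted lines at 0.58 and 1. Hsph1, Hspa8, Hsp90ab1 and Hsp90aa1 lie at the deep upper edge with 68 to 140 reads, and the other 6 members lie at 20 to 31 reads.

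The classes were compared by their summed reads. The 6 constitutive promoters held 247 ST18 and 48 input reads, a fold of 1.88 over all promoters (interval 1.38 to 2.62). The 4 stress-inducible promoters held 243 and 40 reads, a fold of 2.22 (1.58 to 3.19). The constitutive to stress-inducible ratio was 0.847 (interval 0.522 to 1.37), so a difference between the classes was not detectable in these counts. The interval treats the class sums as independent, but Hspa1a and Hspa1l fall in different classes and their windows may share reads. Without Hspa1l, an alternative chosen after seeing the data, the ratio was 0.874 (interval 0.531 to 1.44).

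Each class held 2 of the 4 highest windows: Hspa8 and Hsp90ab1 among the constitutive genes, Hsph1 and Hsp90aa1 among the stress-inducible ones. The median log2 enrichment was 0.24 for the constitutive class (range −0.39 to 1.05) and 0.48 for the stress-inducible class (0.07 to 1.21), against 0.04 over all promoters (interquartile range −0.10 to 0.19).

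The direction of the class ratio rested on single members. It was 1.11 without Hsph1 (interval 0.665 to 1.85), 1.09 without Hspa4 (0.651 to 1.84) and 1.34 with Hsph1 counted as constitutive (0.808 to 2.18). With Hspa8, which has a modest heat response, counted as stress-inducible, the ratio was 0.595, and its interval of 0.364 to 0.982 left out 1.

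By family, the summed fold was 1.86 for Hsp110 (122 against 24 reads, interval 1.19 to 3.01), 2.04 for Hsp70 (190 against 34 reads, 1.41 to 3.04) and 2.17 for Hsp90 (178 against 30 reads, 1.47 to 3.31). The families were not distinguishable, with ratios to Hsp70 of 0.910 for Hsp110 (interval 0.497 to 1.69) and 1.06 for Hsp90 (0.603 to 1.88). Over all 10 members, 490 ST18 and 88 input reads gave a fold of 2.04 (interval 1.62 to 2.58). Of the 10, 9 lay above the median log2 enrichment of all promoters, Hspa4 being the exception.

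**Figure D3:**
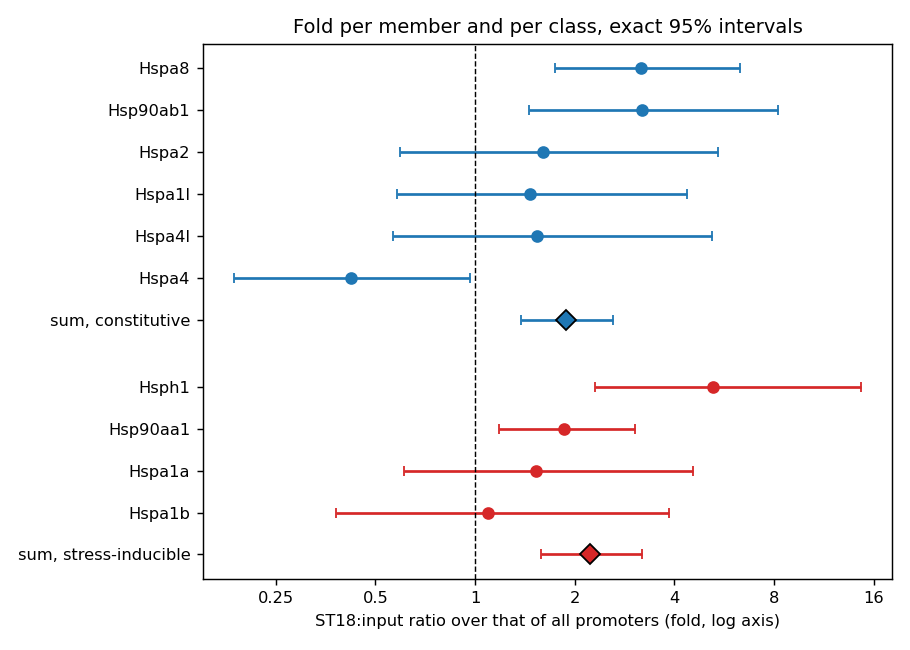
ST18 to input ratio of each member over that of all promoters (circles, log axis) and of each class's summed reads (diamonds), with exact 95% intervals and a dashed line at 1. The class sums, 1.88 and 2.22, have overlapping intervals, while members range from 0.422 for Hspa4 to 5.24 for Hsph1.

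Other genes of the heat shock system were read the same way. The 18 heat-inducible partners, genes that heat shock is known to induce, had a median log2 enrichment of 0.55, against 0.25 for the members, and a summed fold of 2.06 (886 against 157 reads, interval 1.74 to 2.46), against 2.04 for the members. Of these, 8 of 18 reached 0.58 and 9 of 18 had an interval above 1. Hspe1 and Hspd1, the mitochondrial chaperonin pair encoded by neighbouring genes, held 124 against 15 and 114 against 16 reads (log2 1.10 and 0.96). The distance between their starts was not checked, so their windows may share reads. Both windows enter the counts and the sum of this list. Dnaja1 and Dnajb1, J-domain partners that stimulate the ATPase of Hsp70, held 62 against 6 (log2 0.90) and 49 against 7 reads (log2 0.64).

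Further partners past 0.58 were Chordc1, an Hsp90 co-chaperone, at log2 0.95 (70 against 7 reads), and Fkbp4, an immunophilin of Hsp90, at 0.79 (50 against 5). Ahsa2, related to the Hsp90 ATPase activator Ahsa1, stood at 0.71, and Stip1, which links Hsp70 to Hsp90, at 0.60 (54 against 9). Ahsa2 rested on 33 against only 2 reads, with a fold interval of 1.54 to 51.9. Cacybp, at 0.57 (56 against 10 reads), had an interval above 1 as well. The small heat shock protein genes, heat-inducible too, were lower: Hspb8 at 0.17, Hspb1 at 0.16 and Cryab, the lowest of the list, at −0.17 (13 against 8 reads). The member to partner ratio of summed folds was 0.987 (interval 0.737 to 1.33). Several of these partners were already known to lie high in these data when the list was made, so their number is no independent support.

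The 23 cytosolic co-chaperones, of which Chordc1, Fkbp4, Stip1 and Ahsa1 are also in the previous list, had a median of 0.25 and a summed fold of 1.55 (744 against 175 reads, interval 1.32 to 1.84). Here 4 of 23 reached 0.58 and 5 of 23 had an interval above 1. St13, the Hsp70-interacting protein Hip, was the highest at 0.95 (80 against 9 reads), and Bag2, a nucleotide exchange factor of Hsp70, stood at 0.56 (44 against 7). Dnajc7 was the lowest at −0.16 (9 against 6 reads).

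The 9 other genes of the Hsp70 and Hsp90 families, most of them for the endoplasmic reticulum or mitochondria, had a median of −0.15 and a summed fold of 0.942 (214 against 83 reads, interval 0.728 to 1.23). Hspa9, the mitochondrial Hsp70, was the only one of the 9 past 0.58, with 56 against 8 reads (log2 0.69, fold 2.56, interval 1.21 to 6.22). The endoplasmic reticulum chaperones Hspa5 (BiP) and Hsp90b1 (Grp94) held 15 against 10 (log2 −0.24) and 27 against 14 reads (log2 −0.15). Hyou1, the Hsp110 relative of the endoplasmic reticulum, chosen after its value was seen, held 20 against 4 reads (log2 0.27). Hspa13 was the lowest, at −0.34 (15 against 12). Not all genes of this list are for those compartments: it also holds Hspa12b, Hspa12a and Hspa14 (log2 0.14, −0.18 and −0.26). The ratio of the members' summed fold to that of these relatives was 2.16 (interval 1.51 to 3.08). This ratio therefore does not set the cytosol as a whole against other compartments.

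The 6 heat shock factor genes and their regulators lay at the level of all promoters, with a median of 0.05 and a summed fold of 1.02 (139 against 50 reads, interval 0.731 to 1.43). None of the 6 reached 0.58 or had an interval that left out 1. Hsf1, which drives the heat shock response, was the highest at 0.33 (35 against 8 reads), and Hsf2 the lowest at −0.26 (14 against 10).

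As a comparison with strongly transcribed genes, 25 housekeeping promoters had a median of 0.04, as over all promoters, and a summed fold of 0.995 (607 against 223 reads, interval 0.852 to 1.17). None reached 0.58 or had an interval above 1, and 2 of 25, Ywhaz (6 against 8 reads) and Pfn1 (18 against 15 reads, the lowest at −0.41), had one below 1. Hnrnpa2b1, an RNA-binding protein, was the highest at 0.53 (46 against 8). The ratio of the members' summed fold to that of the housekeeping genes was 2.05 (interval 1.54 to 2.72). These genes are strongly expressed in most tissues as background knowledge, and their RNA in TN cells was not analysed here.

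**Figure D4:**
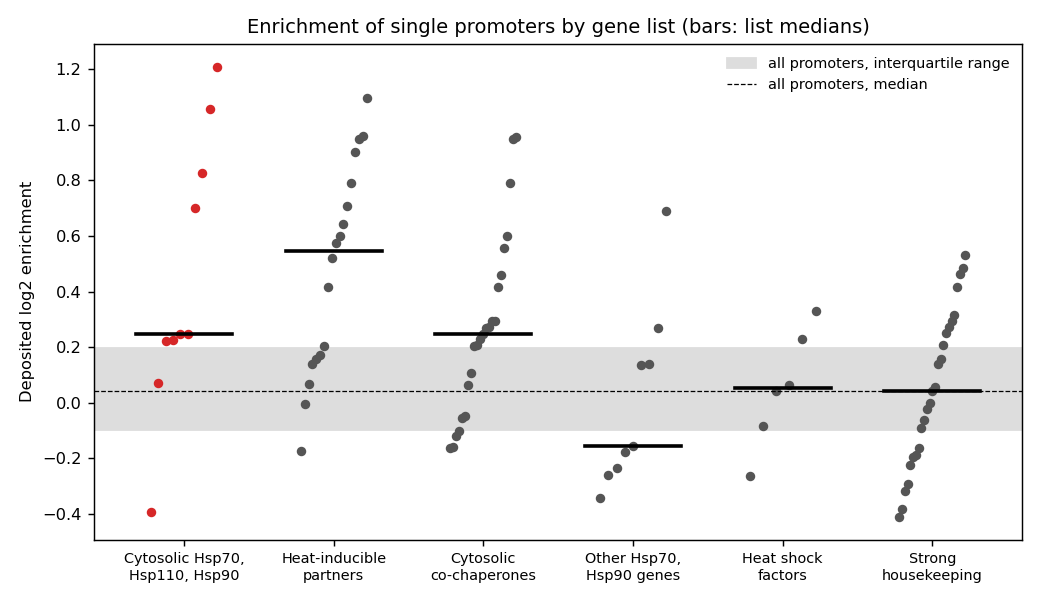
Deposited log2 enrichment of each promoter (points, ordered within a list) for the 10 members (red) and 5 gene lists (grey), with list medians as bars and the median and interquartile range of all promoters as a dashed line and a grey band. Members and heat-inducible partners reach above 1, whereas the housekeeping genes spread around a median of 0.04.

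Sequence features of the members' promoters were set beside those of all matched promoters, over the 250 bases upstream of the first listed start and on both strands. A heat shock element of 2 units, in either form (the forms can overlap), was held by 1708 of 14683 promoters (11.6%), and by 3 of the 7 matched members. Promoters with it had a median log2 enrichment of 0.03, against 0.04 without it, and 1.17% of them reached 0.58, against 1.15% without. For the form GAANNTTC alone the shares were 1.48% with it and 1.13% without, and for TTCNNGAA 0.946% and 1.17%. Members with the element lay at log2 1.21 (Hsph1), 0.25 (Hspa1a) and 0.07 (Hspa1b). Of the 15 heat-inducible partners with a sequence, 4 held it: Hspe1 at 1.10, Dnaja1 at 0.90, Fkbp4 at 0.79 and Hspb1 at 0.16. Its part in the members' values was not tested.

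The heat shock element of 3 units was rarer, held by 56 promoters (0.381%) and by none of the 7 members. Of the 56, 2 reached 0.58 (3.57%), against 1.14% of promoters without it: Hspe1 and Prkrip1, the latter chosen after its value was seen. The MYT1 family motif AAAGTTT was held by 575 promoters (3.92%) and by none of the 7 members, and 0.696% of promoters with it reached 0.58, against 1.17% without.

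Of general promoter elements, CCAAT was found in 5 of the 7 members (all except Hspa4 and Hspa4l) against 36.3% of all promoters. Of promoters with CCAAT, 0.995% reached 0.58, against 1.24% without. GGGCGG, which Sp1 family factors bind, was found in 5 of 7 (all except Hspa4 and Hspa1l) against 45.2%, and 1.66% of promoters with GGGCGG reached 0.58, against 0.733% without. The member counts for CCAAT and GGGCGG both include the near-identical Hspa1a and Hspa1b. TATAAA was found in none of the 7, and in 1765 of the 14683 promoters. Of promoters with TATAAA, 0.680% reached 0.58, against 1.22% without.

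GC content upstream ranged from 49.6% in Hspa1l to 73.6% in Hspa4l, with Hsph1 at 60.0% and Hspa4 at 64.0%, around a median of 56.4% over all promoters. Across 14683 promoters GC content and log2 enrichment had a Pearson correlation of 0.13 and a Spearman correlation of 0.13, and GC content and total reads a Spearman correlation of 0.36. The points share both libraries. No GC content was available for Hspa8, Hsp90ab1 and Hsp90aa1, the next highest members after Hsph1. The part that base composition has in the members' values was not tested.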

How the data were processed

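The authors deposited raw read counts for 1 ST18 ChIP column and 1 input column in promoter windows of 1000 bp, 1 per gene symbol. The deposited log2 enrichment was recovered within 1e-06 in all 21881 windows by scaling the ST18 counts by 0.4055, adding 16 to both columns and taking the log2 ratio. The submitters' processing notes name Bowtie and the build mm9. The sources used here do not name the tool that made the table, the place of a window around the start or any removal of duplicates. The peak list was not used here, since no gene annotation of that build was at hand.

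Folds, exact intervals and conditional exact intervals of ratios were computed from the deposited counts with scipy 1.17.1, and the interval and test functions were tested on simulated data. An exact two-sided binomial test over the 21358 windows with reads, with Benjamini-Hochberg adjustment, was run as an alternative. Promoter sequences came from RefSeq, GRCm38.p6, a different build, so they were matched by symbol. The members and gene lists were chosen with earlier results of these data known. All members were named, and of each list the highest, the lowest and every window at 0.58 or above or with an interval that leaves out 1. Hspb8, Hspb1, Hspa5, Hsp90b1, Hyou1, Hspa12a, Hspa12b and Hspa14 were named in addition, outside this rule.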

Additional observations from a re-analysis of the deposited data

How the results depend on the processing

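The summed folds of both classes stayed above 1 under each alternative run: the constitutive fold ranged from 1.45 to 2.42 over 9 alternatives and the stress-inducible fold from 1.69 to 2.71 over 7. None of these left out both Hspa8 and Hsp90ab1, or both Hsph1 and Hsp90aa1, so the sums were not read without their high windows. Without Hspa8 alone, the interval of the constitutive fold was 1.001 to 2.15. The class ratio ranged from 0.595 to 1.34 over 10, on both sides of 1. The members at a log2 enrichment of 1, 2 as reported, became 1 when the columns were scaled to their promoter totals (0.0274% of all windows) and 4 with a pseudocount of 1 (9.57% of all windows). At 0.58, the 4 members became 8 with a pseudocount of 1 (24.1% of all windows). The 4 members with an interval above 1 became 2 by the exact binomial test adjusted over all windows. The share of all windows called by this test was not counted. The members were chosen with the same counts in view, so these calls are no support. The 1 member with an interval below 1, Hspa4, became 0 with the authors' scaling factor as denominator. The shifts follow from how these settings were built. The alternatives without Hspa1l alone, Hsp90aa1, Hsp90ab1 or Hspa4, and the authors' factor for intervals below 1, were chosen after seeing the data. Fits without each replicate were not run, as the ST18 data have 1 column. No paired analysis was possible because the single ST18 column has no replicate number and the RNA samples were not analysed here. Depth limits the members throughout: input counts of 5 to 23 leave intervals several-fold wide, for Hsph1 and Hsp90ab1 as for the lower members.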
